A study of Homo sapiens with 9 samples.

Results

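JPX-0700 and JPX-0750 were treated here as 1 group. The human cell line MV4-11, derived from an acute myeloid leukaemia, was exposed for 24 h to either compound or to DMSO, the solvent control, and the 6 treated libraries were set against the 3 DMSO libraries of the series (6 of 9 libraries, 3 for each of the 2 compounds). The title of the series describes both compounds as degraders of STAT3 and STAT5, and the dose is not in the labels. Expression was read with QuantSeq, a method that primes on poly(A) and sequences transcript 3′ ends. All groups share the line and the time point, no further agent is named, and whether the libraries of a group came from separate cultures is not given, so p-values measure only the spread between these libraries. The question was which genes differed from DMSO when the compounds were pooled, with protein-coding genes described first.

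STAT3 and STAT5 are latent transcription factors that Janus kinases phosphorylate downstream of cytokine receptors and receptor kinases such as FLT3, after which they enter the nucleus as dimers and bind short palindromic sites. MV4-11 carries an activating FLT3 allele and an MLL fusion, and STAT5 acts in such cells on genes of survival and of the cell cycle. Degraders are small molecules that lower the amount of a protein rather than block its activity, so the transcript of a target need not change.

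The deposited values were normalised counts, that is, reads per gene divided by 1 factor per library. Genes whose mean over the 9 libraries was at least 5 were tested, 12301 in all and 10901 of them protein-coding by RefSeq. Among protein-coding genes, CAMK1 (mean 5.003) and ATP2B3 (5.009) lay just inside this limit and RLN2 (4.998) and GNA14 (4.991) just outside it. Recovered reads ran from 2701317 to 6305586 per library with DMSO and from 726043 to 1941860 with the compounds, so depth and treatment cannot be told apart. In each group 1 library held reads on clearly fewer genes than the rest, namely DMSO replicate 1 (9816), JPX-0700 replicate 3 (10027) and, for JPX-0750, replicate 3 (10407), against 13068 to 14616 in the other 6, and the gene lists were also counted without these gene-poor libraries. The line's markers FLT3, CD33, LYZ and MEIS1 were detected, MPO and HOXA9 stayed under the limit, and the epithelial marker EPCAM was at 0 in all 9 libraries. Summed normalised counts of the lists for other lineages stayed low: 257 to 286 with DMSO and 106 to 368 with the compounds for T and NK cells (7 of 25 markers tested), 23.4 to 36.8 and 13.9 to 116 for B and plasma cells (3 of 17), 5.39 to 50.6 and 45.5 to 208 for erythroid cells and megakaryocytes (2 of 20), and 28.5 to 58.3 and 16.7 to 132 for epithelial cells and fibroblasts (3 of 18). None of these lists held a called gene in the pooled comparison.

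The classes of RNA that took the reads differed between treated and DMSO libraries, in every library. Protein-coding genes took 98.2% ± 0.197 (SD, n = 3) of reads with DMSO and 80.0% ± 2.19 (n = 6) with the compounds. Structured noncoding RNAs, a class of short nuclear, nucleolar, Y and vault RNAs and the like, took 0.136% ± 0.114 and 10.8% ± 1.89. Long noncoding RNAs took 1.12% ± 0.135 and 7.98% ± 2.18. The single gene MALAT1 took 0.176% to 0.547% of reads with DMSO and 3.49% to 8.92% with the compounds. It was the larger part of the long noncoding share in every treated library, so the class values describe mainly this gene there. Pseudogenes took 0.187% ± 0.0329 and 0.590% ± 0.0804. Treated and DMSO libraries did not overlap in any of these 4 classes, and each had p = 0.0238 (two-sided exact permutation test, also 0.0238 after Benjamini-Hochberg adjustment over the classes), the smallest that 6 against 3 libraries allow. In bulk RNA, fewer cells of a kind, less RNA per cell and a change in how RNA was captured cannot be told apart, and no source used here says whether the groups were prepared together. Chromosome positions below are those of RefSeq genes on GRCh38.p14.

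**Figure D1:**
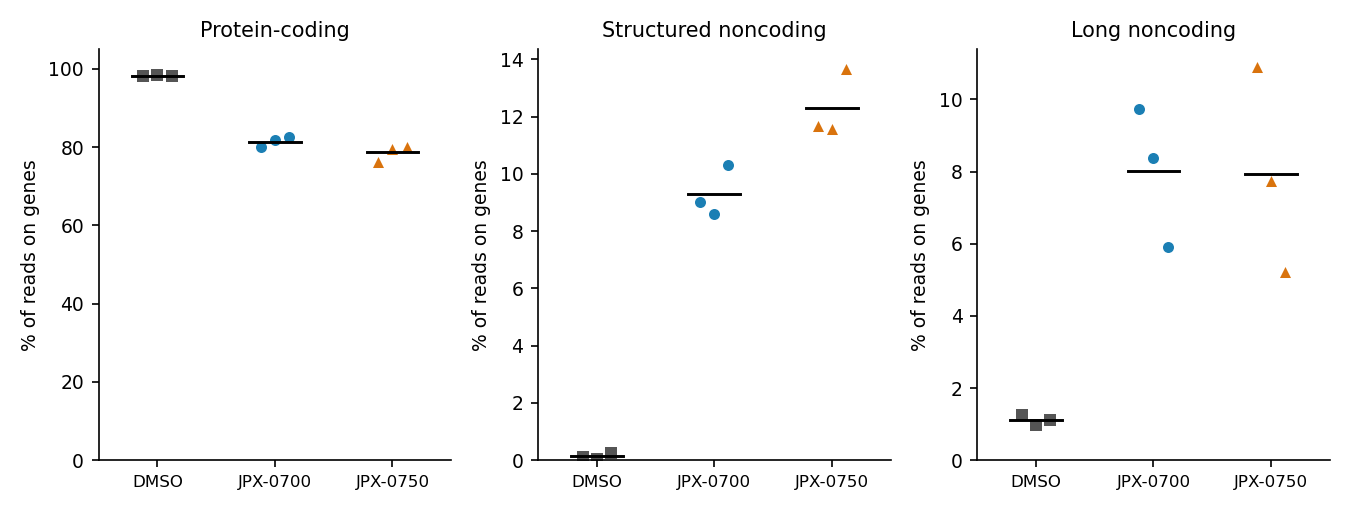
Share of reads on genes (%) that fell on protein-coding, structured noncoding and long noncoding genes, 1 point per library with a line at the group mean. The 3 DMSO libraries lie at 98.0% to 98.4% protein-coding and the 6 treated libraries at 76.2% to 82.5%.

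In the pooled comparison protein-coding genes rose more often than they fell. Of 10901 tested, 467 rose (4.28%) and 59 fell (0.541%) in limma at a Benjamini-Hochberg adjusted p under 0.05, and "rose" and "fell" below mean this call. Genes that rose had a median log2 fold change of 2.66, with a median mean of 58.0 normalised counts with DMSO and 394 with the compounds. Genes that fell had a median mean of 715 normalised counts with DMSO against 203, and a median log2 fold change of -1.88. The test favours well expressed genes here, since log2(normalised count + 1) leaves a low DMSO level little room to fall. All 6 treated libraries lay above all 3 DMSO libraries in 429 of the 467 and below them in 51 of the 59, against 8.04% and 5.05% of all protein-coding genes tested.

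The split between directions depended on scaling. With each library scaled to the same total, 223 protein-coding genes rose and 310 fell, and the median over the 12301 genes moved from 0.19 to -0.42. Scaling to the protein-coding total gave 302 and 133 (median -0.12), TMM 344 and 115 (-0.09) and quantile normalization 456 and 399 (-0.19). Thinning every library to 726043 reads gave 431 and 46. Without the 3 gene-poor libraries the counts were 2234 and 855, with 461 of the 467 and 59 of the 59 among them. Single libraries moved the counts as well. Without DMSO replicate 1, DMSO replicate 2 or JPX-0750 replicate 1, 247, 222 and 280 rose and 6, 3 and 11 fell, and without JPX-0700 replicate 3, 1023 rose and 297 fell. The number that fell was also 26 without DMSO replicate 3, 38 without JPX-0700 replicate 1, 22 without JPX-0750 replicate 2 and 98 without JPX-0750 replicate 3.

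**Figure D2:**
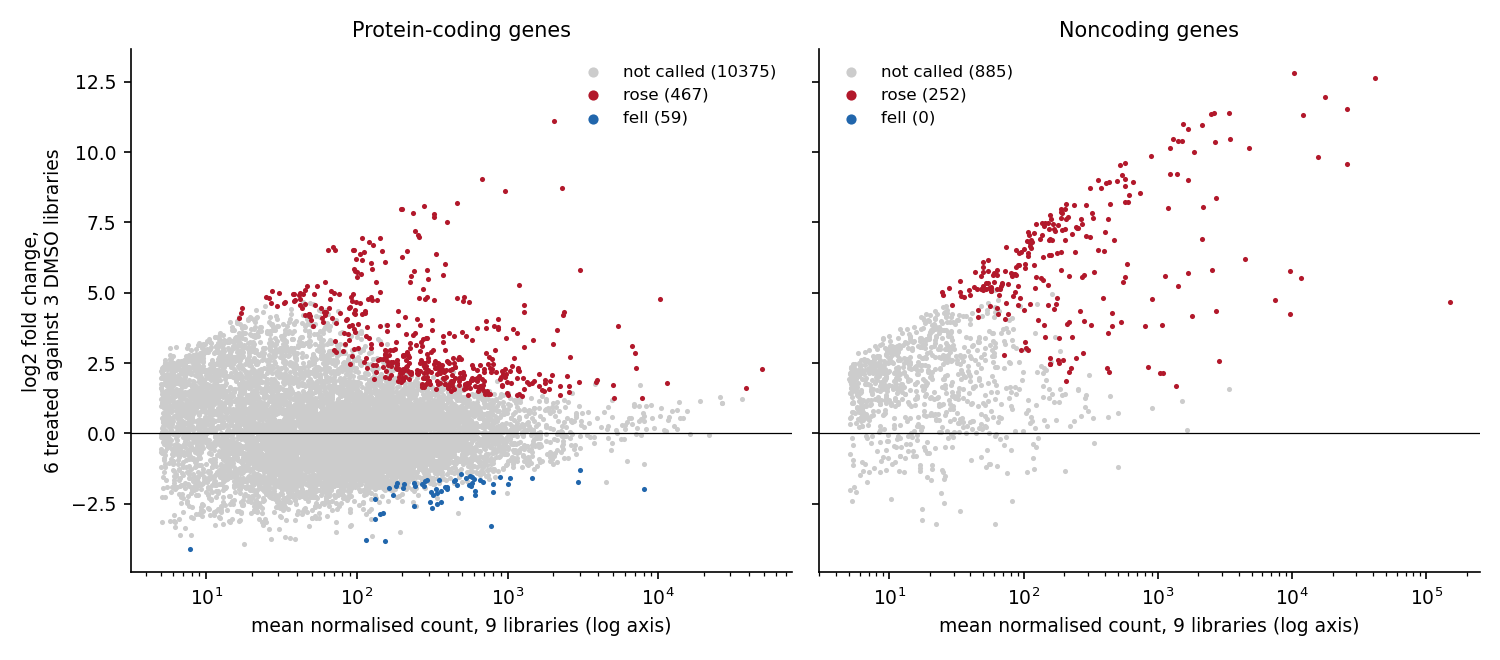
Log2 fold change of the 6 treated against the 3 DMSO libraries (y) by mean normalised count over 9 libraries (x, log axis), 1 point per gene, for protein-coding genes on the left and noncoding genes on the right. Of the protein-coding genes 467 rose (red) and 59 fell (blue), and of 1137 noncoding genes 252 rose and 0 fell.

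Promoters of genes that led the 2 directions by p, among those with a RefSeq promoter entry, are printed to show the sites that the transcription factors of these pathways are known to bind. Sequences are from RefSeq (GRCh38.p14), 250 bases up to the start site, 5′ to 3′ along the gene. Capitals mark a heat shock element (GAA, TTC and GAA with 2 bases between each) in HSPA6 (chr1:161524290-161524539, plus strand), where it is read on the opposite strand, and a cAMP response element (TGACGTCA) in PPP1R15A (chr19:48872171-48872420, plus strand) and in COLGALT1 (chr19:17555399-17555648, plus strand), the last of which fell.
HSPA6: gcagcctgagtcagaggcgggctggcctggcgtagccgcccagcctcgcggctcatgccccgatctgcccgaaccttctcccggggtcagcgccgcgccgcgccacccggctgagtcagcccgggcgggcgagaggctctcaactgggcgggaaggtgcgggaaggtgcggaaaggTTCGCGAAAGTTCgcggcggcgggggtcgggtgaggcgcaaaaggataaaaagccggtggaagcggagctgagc
PPP1R15A: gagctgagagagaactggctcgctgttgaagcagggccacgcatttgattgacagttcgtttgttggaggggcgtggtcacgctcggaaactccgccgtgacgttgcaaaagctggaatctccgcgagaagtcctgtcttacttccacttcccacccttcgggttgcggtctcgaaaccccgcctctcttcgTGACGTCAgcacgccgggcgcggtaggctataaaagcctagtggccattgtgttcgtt
COLGALT1: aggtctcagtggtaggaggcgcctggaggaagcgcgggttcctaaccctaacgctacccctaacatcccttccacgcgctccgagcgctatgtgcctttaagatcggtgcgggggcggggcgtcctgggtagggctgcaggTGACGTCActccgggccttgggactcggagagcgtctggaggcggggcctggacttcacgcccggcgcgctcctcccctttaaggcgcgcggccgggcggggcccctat
Searched over 300 bases (250 before and 50 after the start), the heat shock element was present in 5 of 381 genes that rose and had a promoter entry (1.31%), in 0 of 45 that fell and in 27 of all 9042 (0.299%). A STAT site (TTCNNNGAA), whose letters can overlap a heat shock element, was present in 5.51% of those that rose, 8.89% of those that fell and 6.59% of all. The cAMP response element was present in 3.67%, 2.22% and 3.43%, and the ATF4 and CEBP composite site (TTGCATCA) in 0.787%, 0% and 0.520%. All motifs were searched on both strands. BAG3, MCM2 and PDLIM1, next in that order, held none of them in that window, and FUCA1 held the STAT letters.

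Heat shock genes encode the chaperones and co-chaperones that refold or clear damaged proteins. Of 26 tested 13 rose (50%, against 4.28% of all protein-coding genes) and 0 fell. Their median log2 fold change was 1.53, against 0.02 for all protein-coding genes tested. With 1 library left out 11 to 13 rose, and without the 3 gene-poor libraries 15 did. HSPA6, an HSP70 made almost only under stress (chromosome 1, 161524540 to 161526894), had 0, 0.767 and 0 normalised counts in the DMSO libraries and a lowest, median and highest value of 1401, 2407 and 7003 in the treated ones. All treated libraries were far above all DMSO libraries, with JPX-0700 replicate 3 the highest. Only 2 DMSO reads were behind this, so the ratio of scaled reads was 8757 with a 95% counting interval of 2423 to 72328 (log2 fold change 11.09 ± 0.55 SE, adjusted p = 1.72e-10). HSPA7, a near-identical pseudogene, rose too (log2 fold change 7.86 ± 0.84), and the division of reads between the pair is uncertain. The stress-inducible HSPA1A was listed at 0 in all 9 libraries, DMSO included, so its response cannot be judged from these values. HSPA1B did not pass (2.33 ± 1.35, adjusted p = 0.347). How reads were divided between HSPA1A and HSPA1B was not tested.

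BAG3, which hands HSP70 clients to autophagy (chromosome 10, 119651380 to 119677819), had 57.5, 36.4 and 32.8 normalised counts with DMSO and a lowest, median and highest of 891, 1547 and 3272 with the compounds. Its log2 fold change was 5.28 ± 0.41 (adjusted p = 5.77e-08). DNAJB1, a J-domain protein that starts the HSP70 cycle (chromosome 19, 14514769 to 14560391), had 935, 421 and 378 with DMSO and 8428, 15201 and 22693 with the compounds. DNAJB1 rose by 4.77 ± 0.37 (adjusted p = 5.79e-08), and separate groups were a condition for naming both genes. Further members that rose were the HSP110 nucleotide exchange factors HSPA4L (3.76 ± 0.47) and HSPH1 (2.87 ± 0.38), the small chaperone HSPB1 (3.82 ± 0.53), the J-domain genes DNAJB4 (6.01 ± 0.84) and DNAJA1, the HSP90 genes and partners HSP90AA1, CHORDC1 (2.98 ± 0.42) and FKBP4, the collagen chaperone SERPINH1 and the mitochondrial HSPD1. HSP90AA1, the inducible HSP90, went from 13142 ± 1206 (SD, n = 3) to 66061 ± 17069 (n = 6), with a log2 fold change of 2.30 ± 0.36 (adjusted p = 0.000328) that was 0.63, and no longer called (0.222), after quantile normalization.

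Of 16 polyubiquitin and autophagy receptor genes 3 rose (18.75%, against 4.28% of all protein-coding genes) and 0 fell. Their median was 0.10, against 0.02 for all protein-coding genes tested (5 rose without the 3 gene-poor libraries, and 1 fell under total-sum scaling). ZFAND2A, an arsenite-inducible partner of the proteasome, had 27.8, 28.8 and 23.7 normalised counts with DMSO and 332, 450.0 and 586 (lowest, median, highest) with the compounds (log2 fold change 4.03 ± 0.47, adjusted p = 1.21e-05). The polyubiquitin gene UBB rose by 1.73 ± 0.35, from 1906 ± 42.6 (SD, n = 3) to 6578 ± 1951 (n = 6). Of 31 proteasome subunits 1 rose (PSMC1, 3.23% against 4.28% of all protein-coding genes) and 0 fell, with a median of -0.36. The PSMC1 call did not survive leaving out DMSO replicate 2 (adjusted p = 0.127), total-sum scaling (0.0863) or scaling to the protein-coding total (0.0528). Under total-sum scaling 4 proteasome genes fell, 4 fell without JPX-0700 replicate 3, and 2 rose and 6 fell without the 3 gene-poor libraries.

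The integrated stress response, in which phosphorylated eIF2α slows translation and favours ATF4, was represented by 37 tested genes. Of these 13 rose (35.1%, against 4.28% of all protein-coding genes) and 0 fell, with a median log2 fold change of 1.67. With 1 library left out 8 to 17 rose, and without the 3 gene-poor libraries 21 of 38 did. PPP1R15A, which brings phosphatase to eIF2α (chromosome 19, 48872421 to 48876058), had 56.6, 116 and 63.0 normalised counts with DMSO and 1803, 4769.7 and 6349.9 (lowest, median, highest) with the compounds. The lowest treated library was JPX-0750 replicate 3, and the log2 fold change was 5.81 ± 0.40 (adjusted p = 1.51e-08). GDF15, a secreted stress cytokine, had 1 DMSO read against 589 treated reads, which is 1679 times as many after scaling (counting interval 300.1 to 66419). SLC7A11, the cystine transporter subunit, went from 6.29, 9.59 and 13.997 to 227, 378 and 789 (lowest, median, highest), with a log2 fold change of 5.15 ± 0.58 (adjusted p = 7.64e-06).

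Other members of that list that rose were the transcription factor DDIT3 (6.37 ± 0.77), the mTORC1 inhibitor DDIT4 (4.69 ± 0.63), asparagine synthetase ASNS (2.39 ± 0.51), and PPP1R15B, ALDH1L2, SLC3A2, SESN2, TRIB3, NUPR1 and VEGFA. ATF4 itself did not pass (1.13 ± 0.40, adjusted p = 0.116), and neither did the 24 genes of the ER chaperone and unfolded protein response list, of which 0 rose and 0 fell, with a median of 0.10. In that list 4 fell under total-sum scaling (median -0.53), 3 after quantile normalization, 2 with protein-coding total scaling and 2 without JPX-0700 replicate 3, and 3 rose and 2 fell without the 3 gene-poor libraries. HSPA5, the main HSP70 of the endoplasmic reticulum, had 2076 ± 758 normalised counts with DMSO and 2919 ± 1036 with the compounds (log2 fold change 0.49 ± 0.38, adjusted p = 0.495). Of 27 NRF2 antioxidant genes 2 rose (7.41%, against 4.28% of all protein-coding genes), SLC7A11 and the haem oxygenase HMOX1 (6.50 ± 0.94, adjusted p = 0.000134). From the same list 1 fell (TALDO1, 3.7% against 0.541%). The list's median was 0.09 (-0.54 under total-sum scaling), and 4 rose and 2 fell without the 3 gene-poor libraries. The TALDO1 call did not hold in 6 of the 9 leave-one-out fits, with adjusted p up to 0.224 without DMSO replicate 2.

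Immediate early genes, which encode short-lived transcription factors and feedback regulators, rose in 13 of 32 tested (40.6%, against 4.28% of all protein-coding genes) and fell in 0. The list's median log2 fold change was 2.19 (10 to 17 rose with 1 library left out, 18 without the 3 gene-poor libraries). With its 2 genes that had no DMSO read set to the bound from a floor of 3 reads, the median was 2.27. JUN, a subunit of AP-1 (chromosome 1, 58780791 to 58784047), had 0, 23.0 and 10.8 normalised counts with DMSO and 1128, 2729 and 8951 (lowest, median, highest) with the compounds. JPX-0700 replicate 3 stood highest and no treated library came near the DMSO range. The log2 fold change was 8.73 ± 0.74 (adjusted p = 1.95e-07), or 7.37 without DMSO replicate 1 and 9.66 without DMSO replicate 2. Its partner FOSB had 3 DMSO reads and 721 treated reads, 685 times as many after scaling (counting interval 233 to 3329), and FOS rose by 3.67 ± 0.48 (adjusted p = 4.71e-05). IER5L rose by 5.50 ± 0.62 (6.18 without DMSO replicate 1), and the phosphatase DUSP1, EGR1, EGR3, NR4A2, NR4A3, IER2, IER5, ZFP36 and JUNB rose too. The JUNB call (1.77 ± 0.51, adjusted p = 0.0470) did not hold in 7 of the 9 leave-one-out fits, with adjusted p up to 0.199 without DMSO replicate 3, and under all 4 other scalings (0.0535 to 0.154).

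Signalling regulators outside these lists were among the 12 with the smallest p. RGS2, which shuts off G protein signals (chromosome 1, 192809039 to 192812275), had 0.898, 0.767 and 1.08 normalised counts with DMSO and 135, 750.3 and 1267 (lowest, median, highest) with the compounds. It rose by 8.18 ± 0.74 on the log2 scale (adjusted p = 5.45e-07). HES1, a Notch-responsive repressor (chromosome 3, 194136148 to 194138732), had 0, 2.30 and 3.77 with DMSO and 183, 1577 and 2959 with the compounds, a wide spread among treated libraries. Its log2 fold change was 8.61 ± 0.83 (adjusted p = 1.27e-06), or 7.95 without DMSO replicate 1. In the NF-kB and cytokine list, 5 of 19 genes rose (26.3%, against 4.28% of all protein-coding genes) and 0 fell, around a median of 2.03. Those that rose were NFKBIZ (5.68 ± 0.83), the inhibitor NFKBIA (2.17 ± 0.38), the chemokine CXCL8 (5.84 ± 1.03), and, outside the rule for named genes and chosen after their values were seen, BIRC3 and NFKB2. That median was 0.96 without DMSO replicate 1, 0.93 without the 3 gene-poor libraries (7 rose) and 1.15 after quantile normalization. NFKBIA had 229, 217 and 166 normalised counts with DMSO and 664, 951 and 1407 with the compounds.

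Of 28 p53 targets 8 rose (28.6%, against 4.28% of all protein-coding genes) and 0 fell. Their median was 1.76 (5 to 15 rose with 1 library left out, 17 without the 3 gene-poor libraries). GADD45B, a stress sensor upstream of p38 and JNK (chromosome 19, 2476127 to 2478257), had 47.6, 132 and 66.2 normalised counts with DMSO and 1331, 1726 and 3102 (lowest, median, highest) with the compounds, the highest in JPX-0700 replicate 1. The gain was 4.57 ± 0.42 on the log2 scale (adjusted p = 6.66e-07). PLK2 (4.81 ± 0.51), GADD45A (4.85 ± 0.53) and MDM2, the ligase for p53 (3.17 ± 0.40), rose as well, and the cell cycle inhibitor CDKN1A did not pass (1.49 ± 0.48, adjusted p = 0.0783).

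Of 30 BCL2 family and caspase genes 4 rose (13.3%, against 4.28% of all protein-coding genes) and 0 fell. The median was -0.11 (8 rose and 2 fell without the 3 gene-poor libraries, 5 and 2 without JPX-0700 replicate 3, 2 and 0 under total-sum scaling, and 4 and 2 after quantile normalization). PMAIP1, a BH3-only inducer of apoptosis, had 126, 49.1 and 61.9 normalised counts with DMSO and 659, 871 and 1648 (lowest, median, highest) with the compounds (log2 fold change 3.74 ± 0.46, adjusted p = 1.94e-05). MLKL, the executor of necroptosis, rose by 5.37 ± 0.86, or by 3.93, 5.98 and 6.21 without DMSO replicates 1, 2 and 3. BBC3, another BH3-only gene, rose by 2.46 ± 0.59 (adjusted p = 0.0146), a call lost without DMSO replicate 1 (1.83, adjusted p = 0.146) and with total-sum scaling (0.0634). The apoptosome scaffold APAF1 was the other, and the survival genes MCL1 (-0.17 ± 0.51, adjusted p = 0.882) and BCL2L1 (-1.97 ± 1.31, 0.413) did not pass.

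In the monocyte and macrophage list, 1 of 28 genes fell (3.57%, against 0.541% of all protein-coding genes) and 0 rose. The gene was the integrin subunit ITGAL (-1.80 ± 0.45, adjusted p = 0.0200), a call that did not hold without DMSO replicate 2, DMSO replicate 3 or JPX-0750 replicate 1 (0.133, 0.0912 and 0.0572). The list's median was 0.01 (-0.57 under total-sum scaling), and 1 rose and 3 fell without the 3 gene-poor libraries.

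HEXIM1, which with 7SK RNA holds the elongation kinase P-TEFb inactive (chromosome 17, 45148475 to 45152099), had 254, 147 and 138 normalised counts with DMSO and 1889, 3297 and 4871 (lowest, median, highest) with the compounds. It rose by 4.22 ± 0.39 (adjusted p = 6.66e-07) and was the only called gene of 16 in its list (6.25%, near the 4.28% of protein-coding genes that rose). SAT1, the enzyme that starts polyamine catabolism (chromosome X, 23783173 to 23786210), went from 110.5, 80.1 and 83.98 to 1033, 2037 and 2249 (lowest, median, highest). The increase was 4.31 ± 0.37 on the log2 scale (adjusted p = 2.89e-07).

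Replication-dependent histone genes, whose mRNAs normally end in a stem-loop rather than a poly(A) tail, rose in 21 of 44 tested (47.7%, against 4.28% of all protein-coding genes) and fell in 0. Their median log2 fold change was 3.72 (14 to 28 rose with 1 library left out, 38 without the 3 gene-poor libraries). Without DMSO replicate 1 the median was 2.71 and 14 rose. HIST1H2AG, an H2A gene (chromosome 6, 27133043 to 27133535), had 0, 4.22 and 4.85 normalised counts with DMSO and 433, 558 and 798 (lowest, median, highest) with the compounds. Its log2 fold change was 7.52 ± 0.67 (adjusted p = 4.23e-07), or 6.69 without DMSO replicate 1. The H4 genes HIST1H4E (7.70 ± 0.75) and HIST1H4B (7.20 ± 0.74, or 6.58 without DMSO replicate 1) rose likewise. These genes are near copies of one another, so how reads were divided among them is uncertain. The list's summed level overlapped between groups, 4943 to 10006.7 with DMSO and 6407 to 18040.8 with the compounds, and the abundant member HIST1H1C did not pass (1.17 ± 0.69, adjusted p = 0.356). Structured noncoding RNA moved alongside, at 10.8% of reads against 0.136%, and its part in this and the other groups of genes was not tested.

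**Figure D3:**
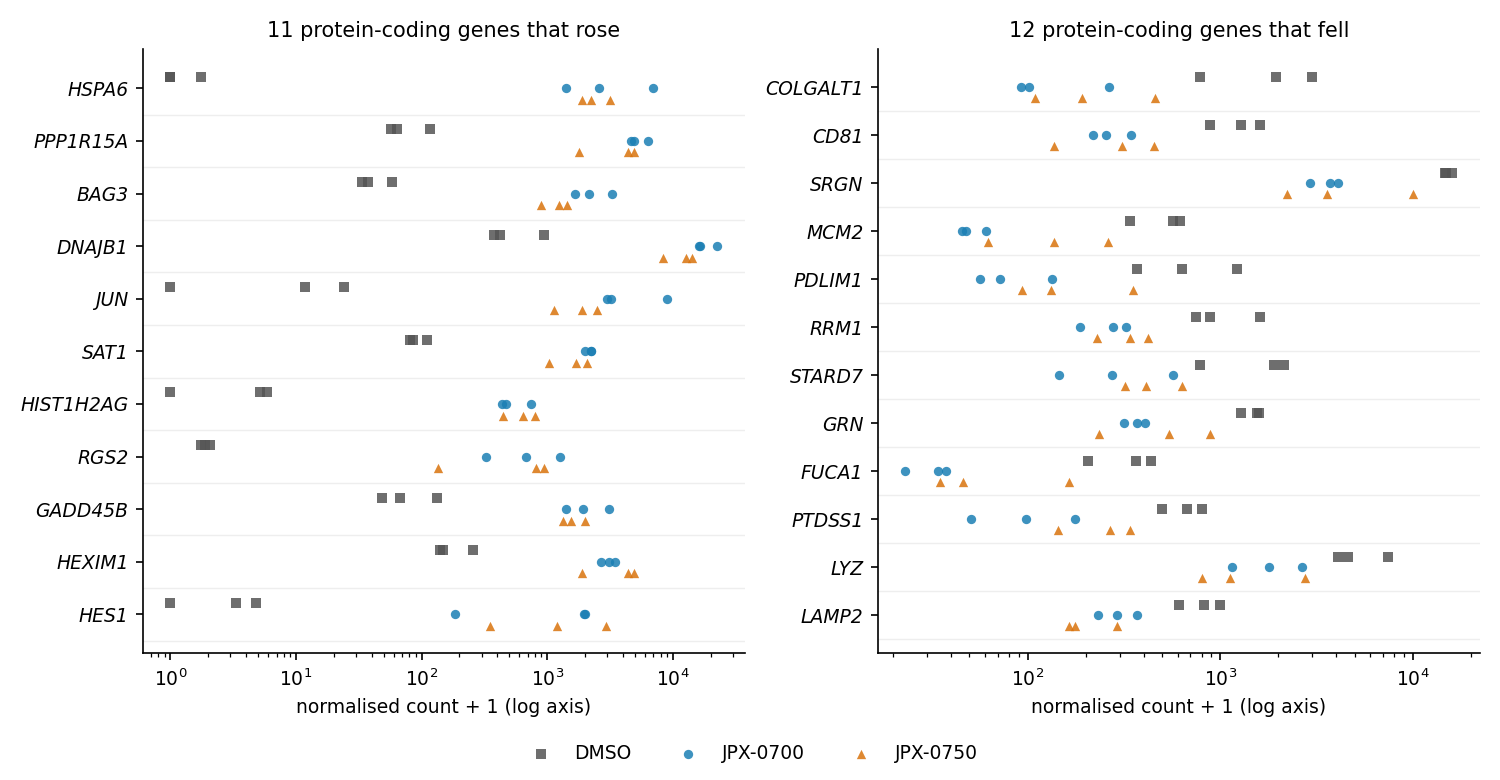
Normalised count + 1 (log axis) in each of the 9 libraries for 11 protein-coding genes that rose (left) and 12 that fell (right), among those with the smallest p, 1 point per library. HSPA6 moved from 0 to 0.767 with DMSO up to 1401 to 7003 with the compounds, and SRGN from 14713 to 15983 down to 2205 to 9932.

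Among the 59 genes that fell, those named were well expressed in DMSO, which the test favours, as given above. COLGALT1, which adds galactose to collagen hydroxylysines (chromosome 19, 17555649 to 17583157), had 1949, 2995 and 779 normalised counts with DMSO and 91.7, 149.996 and 459 (lowest, median, highest) with the compounds. It fell by 3.28 ± 0.56 on the log2 scale (adjusted p = 0.000757). CD81, a tetraspanin of the cell surface (chromosome 11, 2376180 to 2397397), had 887, 1613 and 1273 with DMSO and 137, 281 and 449.8 with the compounds, and fell by 2.19 ± 0.45 (adjusted p = 0.00432). DMSO replicate 3 was the lowest control for COLGALT1.

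Replication genes fell in 5 of 50 tested (MCM2, RRM1, RPA1, FEN1 and RRM2) and rose in 1 (CCNE2), with a median log2 fold change of -0.94, where 0.541% of protein-coding genes fell (0 to 10 fell with 1 library left out). Without the 3 gene-poor libraries 16 fell and 4 rose. MCM2, a subunit of the replicative helicase (chromosome 3, 127598411 to 127622436), had 618, 569 and 341 normalised counts with DMSO and 44.7, 60.8 and 262 (lowest, median, highest) with the compounds (fell by 2.59 ± 0.56, adjusted p = 0.00705). RRM1, the large subunit of ribonucleotide reductase (chromosome 11, 4094685 to 4138932), had 1606, 747 and 881 with DMSO and 186, 299 and 418 with the compounds (fell by 1.83 ± 0.42, adjusted p = 0.0116). For MCM2 the highest treated value was that of JPX-0750 replicate 3. RPA1, which coats single-stranded DNA, fell by 2.87 ± 0.73 (adjusted p = 0.0214). CCNE2, a cyclin of S phase entry, rose by 2.37 ± 0.65 (adjusted p = 0.0342), and its size was 3.03 without DMSO replicate 3. Its call did not hold without DMSO replicate 1 (0.205), DMSO replicate 2 (0.206), JPX-0750 replicate 1 (0.0980) or JPX-0750 replicate 2 (0.0763), or under total-sum, TMM or protein-coding total scaling (0.107, 0.0673 and 0.0785). The RPA1 call was lost without any 1 DMSO library or JPX-0750 replicate 1 (0.101, 0.250, 0.0642 and 0.0582).

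Among genes of G2/M and mitosis 2 of 44 fell (4.55%, against 0.541% of all protein-coding genes) and 0 rose. Their median was -0.93 (0 to 7 fell with 1 library left out, 13 without the 3 gene-poor libraries). STMN1, which destabilises microtubules, fell by 1.596 ± 0.40 (adjusted p = 0.0214), and BIRC5, the apoptosis inhibitor survivin of the chromosomal passenger complex, fell by 1.76 ± 0.47 (0.0298). Of 28 glycolysis and pentose phosphate genes 0 rose and 3 fell (10.7%, against 0.541% of all protein-coding genes), ENO1, TALDO1 and GPI. The list's median was -0.93 (0 to 4 fell with 1 library left out, 6 after quantile and 7 after total-sum scaling, and 3 rose and 10 fell without the 3 gene-poor libraries). ENO1, enolase, had 3604, 6322 and 5129 normalised counts with DMSO and 1273, 1915 and 3087 (lowest, median, highest) with the compounds. Each of these 5 calls failed in 5 to 7 of the 9 leave-one-out fits, DMSO replicates 1, 2 and 3 among them for all 5, with adjusted p up to 0.154, 0.176, 0.201, 0.224 and 0.176 for STMN1, BIRC5, ENO1, TALDO1 and GPI.

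SRGN, the proteoglycan core of myeloid granules (chromosome 10, 69087603 to 69104811), had 14856, 15983 and 14713 normalised counts with DMSO and 2205, 3651 and 9932 (lowest, median, highest) with the compounds. JPX-0750 replicate 3 gave the highest treated value, and SRGN fell by 1.96 ± 0.41 (adjusted p = 0.00523). LYZ, lysozyme (chromosome 12, 69348381 to 69354234), had 4575, 7377 and 4055 with DMSO and 801, 1472 and 2742 with the compounds, and fell by 1.74 ± 0.42 (adjusted p = 0.0155). These were the 2 called of 10 granule genes tested (20%, against 0.541% of all protein-coding genes that fell). The list's median was -0.50 (1 fell without DMSO replicate 1 or 2, and 4 without the 3 gene-poor libraries).

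Of 35 lysosome genes 0 rose and 4 fell (11.4%, against 0.541% of all protein-coding genes). Their median was -0.76 (0 to 8 fell with 1 library left out, 12 without the 3 gene-poor libraries). LAMP2, a lysosomal membrane protein (chromosome X, 120426148 to 120469349), had 821, 996 and 610.5 normalised counts with DMSO and 163, 260.5 and 369 (lowest, median, highest) with the compounds, and fell by 1.70 ± 0.42 (adjusted p = 0.0178). The saposin precursor PSAP fell by 2.18 ± 0.58 (adjusted p = 0.0291), with 1 treated library inside the DMSO range, and CD63 by 1.55 ± 0.43 (0.0340). FUCA1 and GRN, lysosomal products outside that list, were named for their small p among genes that fell, so they add nothing to the list's count. Lysosomal genes outside the list that did not fall were not counted. FUCA1, a fucosidase (chromosome 1, 23845077 to 23868290), had 436, 365 and 206 with DMSO and 22.2, 35.6 and 163 with the compounds (fell by 2.84 ± 0.68, adjusted p = 0.0144), the highest again in JPX-0750 replicate 3. GRN, progranulin (chromosome 17, 44345302 to 44353106), had 1548, 1594 and 1276 with DMSO and 233, 387 and 879.6 with the compounds (fell by 1.81 ± 0.42, adjusted p = 0.0125). The PSAP and CD63 calls were lost without DMSO replicates 1 or 2 (adjusted p = 0.237 and 0.162 for PSAP, 0.248 and 0.217 for CD63), without JPX-0700 replicate 1 (0.0514 and 0.0700) and without JPX-0750 replicate 1 (0.0730 and 0.101), and that of CD63 also without JPX-0750 replicate 2 (0.0508).

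The remaining genes of the 12 that fell served the cytoskeleton and lipids. PDLIM1, an adaptor of actin fibres (chromosome 10, 95237572 to 95291003), had 368, 1222 and 635 normalised counts with DMSO and 55.6, 112 and 349.9 (lowest, median, highest) with the compounds, and fell by 2.51 ± 0.57 (adjusted p = 0.00938). STARD7, a phosphatidylcholine carrier (chromosome 2, 96184859 to 96208827), had 2129, 1905 and 781 with DMSO and 145, 364 and 629.7 with the compounds, and fell by 2.07 ± 0.48 (adjusted p = 0.0122). PTDSS1, a phosphatidylserine synthase (chromosome 8, 96261902 to 96336995), had 807, 669 and 499.6 with DMSO and 50.02, 159 and 341 with the compounds, and fell by 2.10 ± 0.51 (adjusted p = 0.0152). For PDLIM1 the groups were only just apart, at 349.9 in the highest treated library against 368 in the lowest DMSO library.

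The calls of the genes that fell rested on few controls. Of these 12, COLGALT1 and SRGN kept their calls in all 9 fits that left out 1 library. CD81 and PDLIM1 lost theirs without DMSO replicate 2 (adjusted p = 0.0543 and 0.143), and RRM1 without DMSO replicate 1 (0.142). MCM2, STARD7, GRN, FUCA1, PTDSS1, LYZ and LAMP2 lost theirs without either of the 2 (0.0777, 0.124, 0.0785, 0.142, 0.126, 0.0618 and 0.105 without replicate 1, and 0.0763, 0.0977, 0.0781, 0.134, 0.0949, 0.126 and 0.154 without replicate 2), and LAMP2 also without JPX-0750 replicate 1 (0.0535). The 12 that rose kept their calls in all 9 such fits, with adjusted p up to 3.82e-05.

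The transcripts of the named targets did not pass. STAT3 had 279, 69.4 and 146 normalised counts with DMSO and 35.0, 154 and 282 (lowest, median, highest) with the compounds, with overlapping groups (log2 fold change -0.26 ± 0.74, adjusted p = 0.873). Its sign was positive without DMSO replicate 1, JPX-0700 replicate 3, JPX-0750 replicate 3 or all 3 of them (0.23, 0.07, 0.17 and 0.98). STAT5A had 108, 75.2 and 42.5 with DMSO and 3.33, 45.1 and 91.7 with the compounds (-1.15 ± 0.97, adjusted p = 0.532), and STAT5B had 59.3, 47.9 and 71.1 and 0, 41.0 and 86.4 (-1.34 ± 1.24, adjusted p = 0.573). These transcripts say nothing of protein levels, which were not measured here.

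Calls among known STAT5 and STAT3 target genes are set beside those of all protein-coding genes tested, of which 4.28% rose and 0.541% fell. Of 21 STAT5 targets 0 rose and 0 fell, with 0 to 2 in each direction in the fits without 1 library and 2 and 1 without the 3 gene-poor libraries, and their median log2 fold change was -0.76. Smallest in p were TNFRSF1B, a TNF receptor (-2.25 ± 0.68, adjusted p = 0.0588), the feedback inhibitor SOCS1 (3.71 ± 1.29, 0.108), the cyclin CCND3 (-1.39 ± 0.49, 0.116) and SOCS3 (2.13 ± 0.83, 0.158). TNFRSF1B had 455, 281 and 343 normalised counts with DMSO and 13.9, 99.0 and 173 (lowest, median, highest) with the compounds, which did not overlap, and CCND3 had 563, 476 and 350.5 and 88.9, 198 and 298. TNFRSF1B and CCND3 passed under total-sum scaling (adjusted p = 0.0306 and 0.0289), quantile normalization (0.0184 and 0.0416), voom weights (0.0179 and 0.0444) and without JPX-0700 replicate 2 (0.0148 and 0.0452), and TNFRSF1B also without JPX-0700 replicate 3 (0.0218) and under TMM scaling (0.0367). SOCS1, which lay higher with the compounds, passed when thinned to equal depth (0.0357), with voom weights (0.0154), without JPX-0700 replicate 3 (0.0127) and without the 3 gene-poor libraries (0.00322), and SOCS3 passed in the last 2 of these (0.0366 and 0.00175). The classical targets CISH (-1.72 ± 0.99, adjusted p = 0.344), PIM1 (-1.603 ± 0.85, 0.302) and MYC (-1.32 ± 0.78, 0.357) did not pass, and were named after their values were seen.

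Of 20 STAT3 targets 3 rose (15%) and 1 fell (5%), where 4.28% and 0.541% of protein-coding genes did. Their median was 0.47, or -0.15 under total-sum scaling. Leaving out 1 library gave 1 to 7 that rose, with 1 without any DMSO library, JPX-0700 replicate 1 or JPX-0750 replicate 1 and 7 without JPX-0700 replicate 3, and without the 3 gene-poor libraries 5 rose and 2 fell. FOS, described above, had 45.8, 29.9 and 27.99 normalised counts with DMSO and 313, 469 and 596 (lowest, median, highest) with the compounds. VEGFA, the angiogenic growth factor, rose by 2.25 ± 0.57 (adjusted p = 0.0207), a call that failed in 5 of the 9 leave-one-out fits, with adjusted p up to 0.143 without DMSO replicate 2, and under total-sum and protein-coding total scaling (0.115 and 0.0857). JUNB and BIRC5 were the others. These genes were also counted in lists above: FOS and JUNB as immediate early genes, VEGFA in the integrated stress response list and BIRC5 in that of G2/M. The STAT3 target shares are therefore not separate from those counts. Of 24 JAK, STAT and cytokine receptor genes 0 rose and 0 fell, and their median was -0.22 (2 rose and 2 fell without the 3 gene-poor libraries).

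Cytosolic ribosomal protein genes rose in 4 of 72 tested (5.56%, near the 4.28% of all protein-coding genes) and fell in 0, and their median of 0.56 was -0.08 under total-sum scaling and -0.21 after quantile normalization. RPL23A had 1421, 1652 and 2205 normalised counts with DMSO and 4831, 8019.7 and 21739.5 (lowest, median, highest) with the compounds (log2 fold change 2.32 ± 0.39, adjusted p = 0.000646). Exons of RPL23A and of WDR74, named below, overlap an annotated small RNA, and whether its reads were counted to them was not tested. Nuclear oxidative phosphorylation genes (60 tested), sterol and fatty acid synthesis genes (33), MLL fusion and HOXA programme genes (19) and MHC class II and antigen presentation genes (10) held 0 calls, with medians of -0.40, -0.62, -0.04 and -0.03. This depended on libraries and scaling. Oxidative phosphorylation genes fell in 5 to 9 under the other scalings, in 10 without JPX-0700 replicate 3, in 3 without JPX-0750 replicate 3 and in 21 (1 rose) without the 3 gene-poor libraries. Without those 3, sterol genes rose in 3 and fell in 5, MLL and HOXA genes rose in 6 (4 without JPX-0700 replicate 3) and MHC genes rose in 3 and fell in 2. MYC network and ribosome biogenesis genes rose in 2 of 43 (4.65%, MNT and WDR74), and type I interferon response genes in 2 of 29 (6.9%, TRIM22 and XAF1). These shares lay near the 4.28% of all protein-coding genes, and the list medians were -0.37 and 0.14. Without the 3 gene-poor libraries the MYC list had 4 that rose and 4 that fell, and the interferon list 8 and 3. Those 4 calls were lost without DMSO replicate 1 for MNT, WDR74 and XAF1 (adjusted p = 0.0655, 0.159 and 0.189) and without DMSO replicate 2 for TRIM22, WDR74 and XAF1 (0.112, 0.0786 and 0.179). WDR74 and XAF1 also lost theirs without further treated libraries (up to 0.0736 and 0.0659) and under total-sum scaling (0.0883 and 0.141).

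**Figure D4:**
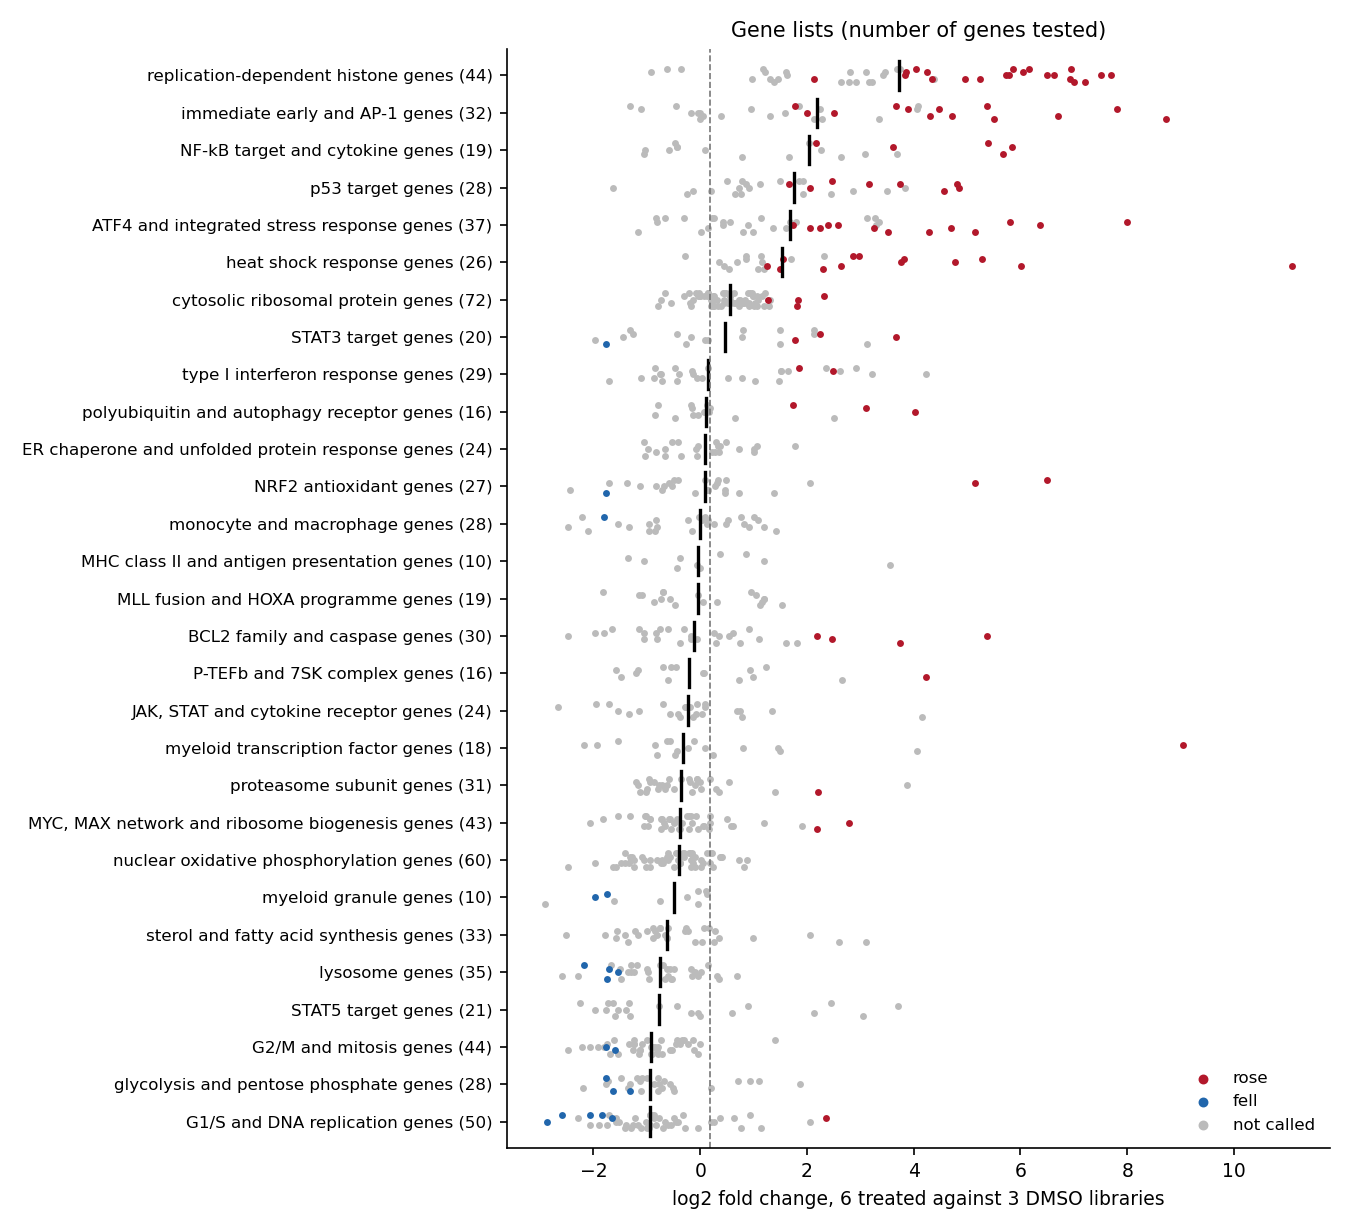
Log2 fold change of the 6 treated against the 3 DMSO libraries (x) for each tested member of the lists (y), with red for genes that rose, blue for genes that fell and grey for the rest. Black lines mark list medians, from 3.72 for histone genes to -0.94 for replication genes, and the dashed line marks the median of all genes tested, 0.19. Over protein-coding genes alone that median was 0.02.

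Pooling called genes that did not pass the threshold with either compound alone. The compounds alone gave 401 (JPX-0700, 3.68%) and 249 (JPX-0750, 2.28%) protein-coding genes that rose, and 61 (0.56%) and 9 (0.0826%) that fell. All these comparisons share the 3 DMSO libraries. Of the 467 that rose in the pooled comparison, 217 were called with each compound, 159 with JPX-0700 only, 29 with JPX-0750 only and 62 with neither. Of the 59 that fell, 3 were called with each, 32 with JPX-0700 only, 5 with JPX-0750 only and 19 with neither. Smallest in p of the genes with neither were the unconventional cyclin CCNG2 (log2 fold change 3.05 ± 0.75, adjusted p = 0.0176, with 2.99 and 3.11 for JPX-0700 and JPX-0750), FAM133B (1.93 ± 0.49, with 1.84 and 2.02) and SPATA1 (4.21 ± 1.07, with 4.08 and 4.34).

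The other named genes of that kind were TREM1, an activating receptor of myeloid cells, ZNF507 and the ciliary dynein DYNC2H1. TREM1 had 0 DMSO reads and 82 treated reads, at least 77.9-fold higher when 3 reads are taken as the floor of the DMSO group. For CCNG2 the DMSO libraries held 30.5, 13.8 and 11.3 normalised counts and the treated ones 52.2, 138 and 419.6 (lowest, median, highest). Each of these 6 calls failed in 3 to 5 of the 9 leave-one-out fits, DMSO replicate 2 among them for all 6 (adjusted p = 0.0878, 0.136, 0.0655, 0.124, 0.0968 and 0.0636 for CCNG2, FAM133B, SPATA1, TREM1, ZNF507 and DYNC2H1). Without DMSO replicate 1 the values of SPATA1 and DYNC2H1 were 3.20 and 3.29 (from 4.18 for DYNC2H1), and without DMSO replicate 3 that of SPATA1 was 4.94.

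The compounds did not differ from each other in any gene by this test. In the 1 pair that could be compared, at the same time point and at doses the labels do not give, limma called 0 of 12301 genes (0%), 395 had an unadjusted p under 0.05 (3.21%) and the smallest adjusted p was 0.848. voom weights on recovered reads, chosen after seeing the data, also called 0, with 547 at an unadjusted p under 0.05. The test does not show that the compounds act alike, since the 95% interval of the difference reached a median of 2.35 log2 units to each side over all genes. For the 24 genes with the smallest p it reached 0.90 to 2.03, so smaller differences were not detectable. For HSPA6 the difference was -0.30 (JPX-0750 minus JPX-0700, interval -1.63 to 1.03), for HEXIM1 0.16 (-0.78 to 1.11) and for CD81 0.00 (-1.08 to 1.09). BAG3 (-0.96, -1.95 to 0.03) and MCM2 (1.36, -0.01 to 2.72) came near to excluding 0, and PTDSS1 was the 1 of the 24 whose interval did so (1.31, 0.08 to 2.54, adjusted p = 0.848).

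Direction across the called genes can be given as counts only, and the matching share over all genes tested was not counted. Over all genes tested the median log2 fold change against DMSO was 0.14 with JPX-0700 and 0.26 with JPX-0750. JPX-0750 gave the higher fitted value in 138 of the 467 genes that rose and in 46 of the 59 that fell, that is, the smaller change in most. The median size of the difference was 0.42 log2 units for the former and 0.53 for the latter, within median 95% interval half-widths of 1.34 and 1.22. PLAT, ANGEL1, ITGB2 and PLPP7 were among the 5 genes with the smallest p between the compounds, none of which was called. ITGB2, the β2 integrin chain of leukocytes, had 3039.6, 1755 and 571 normalised counts with DMSO and from 19.5 to 1244 with the compounds, with log2 fold changes of -3.53 with JPX-0700 and -0.69 with JPX-0750.

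**Figure D5:**
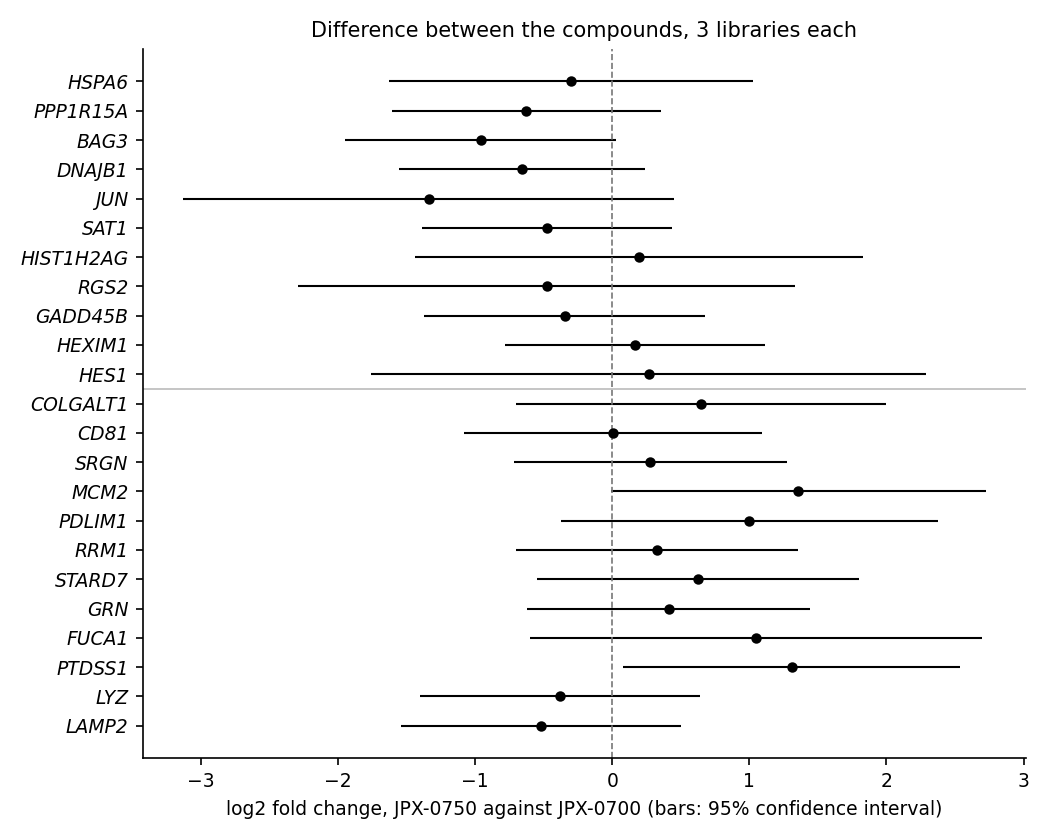
Log2 fold change of JPX-0750 against JPX-0700 with its 95% confidence interval (x) for 11 genes that rose (above the line) and 12 that fell (below it) in the pooled comparison. PTDSS1 is the 1 gene whose interval, 0.08 to 2.54, excludes 0.

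Noncoding genes rose in a larger share than protein-coding ones. Of 1137 tested 252 rose (22.2%) and 0 fell (0%), 264 had all 6 treated libraries above DMSO (23.2%), and the median log2 fold change was 2.33 against 0.02 for protein-coding genes. Of the 252, 170 were structured RNAs (of 281 tested, median 5.37) and 56 were long noncoding RNAs (of 604, median 1.94). Without the 3 gene-poor libraries 729 rose and 5 fell, with voom weights 485 and 5, and without JPX-0700 replicate 3 408 and 2. MALAT1, a nuclear long noncoding RNA, went from 9016 ± 4527 (SD, n = 3) to 218908 ± 73021 (n = 6) normalised counts (log2 fold change 4.68 ± 0.45, adjusted p = 1.21e-06).

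The 6 noncoding genes with the smallest p were all structured RNAs. SNORD46, a box C/D RNA that guides ribosomal RNA methylation, had 5.39, 4.22 and 5.38 normalised counts with DMSO and 9655, 27201 and 42288 (lowest, median, highest) with the compounds (log2 fold change 11.96 ± 0.42, adjusted p = 3.75e-12). RN7SK, the 7SK RNA that HEXIM1 binds, had 3.59, 11.504 and 26.9 with DMSO and 24686, 26331 and 76876 with the compounds (11.52 ± 0.48, or 10.8 and 12.1 without DMSO replicates 1 and 3). SNORD83A rose by 11.39 ± 0.49, with 6 DMSO reads. The vault RNA VTRNA1-1, SNORD14E and the U5 spliceosomal RNA RNU5B-1 had 3, 2 and 2 DMSO reads, and ratios of 6335 (2167 to 30727), 11542 (3194 to 95321) and 9058 (2506 to 74811) with their counting intervals. None of these RNAs ends in a long poly(A) tail by normal processing, and nucleolar RNA genes lie inside introns of host genes, so reads from host introns and from the RNA itself cannot be told apart in a gene table.

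Gene structure gave a further description of the protein-coding genes called. Genes with no intron in any annotated transcript (GENCODE v29) made up 32 of the 467 that rose (6.85%), 1 of the 59 that fell (1.69%) and 219 of 10883 annotated genes tested (2.01%). They included HSPA6, JUN, HEXIM1, IER5 and SOX4 beside 19 histone genes. The median annotated span was 45606 bases for genes that rose, 21530 for those that fell and 30682 for all tested, with an upper quartile of 134066, 42949 and 72531. Exons over an annotated small RNA were present in 4 of the 467 (0.857%), RPL23A and WDR74 among them, and in 0.496% of all. No test is given for these shares, and no source used here says how reads in introns were counted.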

How the data were processed

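Poly(A)-primed 3′ RNA-seq of 9 MV4-11 libraries (DMSO, JPX-0700 and JPX-0750, 3 each, 24 h) was analysed from 1 deposited table of 26929 genes. Per the submitters' processing notes, the tools were STAR 2.4.2a and featureCounts 2.0.3, with FastQC 0.11.9, SAMtools 1.4 and DESeq2 also named, on build GRCh38, with the annotation, strand setting and roles not given there. The authors deposited normalised counts (gene counts divided by 1 factor per library). Each value was a whole multiple of 1 read in its library (100% within 1e-06), worth 0.383 to 4.61, and reads were recovered from this.

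Gene classes came from RefSeq by symbol (24159) or synonym (1407), with 1363 unmatched, and intron structure from GENCODE v29. Genes with a mean of at least 5 (12301) were tested with limma 3.58.1 (R 4.3.3) on log2(normalised count + 1), with a trend and a mean per group (6 residual degrees of freedom), two-sided, Benjamini-Hochberg adjusted over all genes tested at 0.05. A fold change on this scale understates that of low genes. The contrast was the mean of both compounds minus DMSO, and errors are SE unless marked. Class shares were compared by an exact permutation test (scipy 1.17.1). Counting intervals are 95%, exact, and cover counting error only, since PCR copies are not independent molecules. The fit was tested on simulated data.

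Named genes were the 12 that rose and 12 that fell with the smallest p, groups apart and a mean of at least 20; the targets; up to 3 called genes per list and direction (and 4 uncalled STAT targets); 6 called only when pooled; 6 noncoding; 5 between the compounds; and the 6 called with the highest mean in each direction. Others in the text are further list members, named after their values were seen. The members and lists were chosen with earlier results of these data known. Alternatives covered scaling, filters, pseudocounts, depth, the replicate number as a block and leaving out libraries. Results for a few of these genes are not reported here. Deviations from group means were correlated to check whether replicate numbers pair libraries. The 3 same-numbered pairs of JPX-0700 and JPX-0750 gave 0.129, 0.171 and 0.190, and the differently numbered ones -0.198 to 0.153. Same-numbered pairs with DMSO gave -0.143 to -0.0436, and differently numbered ones -0.0635 to 0.188. These values overlap for the compounds and do not establish a pairing by number, and the labels state none. With the block, 0 genes differed between the compounds, as without it, and 427 against 395 had an unadjusted p under 0.05.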

Additional observations from a re-analysis of the deposited data

Results flagged for a closer look

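In 6 of 31 groups of treated libraries checked, 1 library stood far from the other 5, by the gap to its nearest neighbour over the whole range (above Dixon's 95% critical value, which chance exceeds in about 1 in 20 groups). JPX-0700 replicate 3 was the high library for the chaperone gene HSPA6 (gap ratio 0.682) and for JUN (0.729). JPX-0700 replicate 1 was the high library for GADD45B (0.626). JPX-0750 replicate 3 was the high library for 3 genes that fell, namely SRGN (0.758), PDLIM1 (0.735) and FUCA1 (0.835), and so the closest of the treated libraries to DMSO.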

How the results depend on the processing

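Counts of protein-coding genes that rose (467) and fell (59) were 223 and 310 with total-sum scaling, 302 and 133 with protein-coding total scaling, 1027 and 248 with voom weights on recovered reads and 2234 and 855 without the 3 gene-poor libraries, both of the last chosen after seeing the data. The number that fell was also 115 with TMM, 399 with quantile normalization, 37 with no filter and 38 with only protein-coding genes tested. Calls that were higher made up 88.8% in the deposited scaling, 41.8% with total-sum, 69.4% with protein-coding total, 74.9% with TMM and 53.3% with quantile scaling. Leaving out 1 library gave 222 to 1023 that rose and 3 to 297 that fell. Noncoding genes that rose (252) numbered 729 without the 3 libraries, 485 with voom and 196 to 408 with 1 left out; those that fell (0) numbered 1 with total-sum and with protein-coding total scaling, 5 with quantile normalization, without the 3 libraries and with voom, and 0 to 2 with 1 left out. Class share differences ranged from -18.7 to -17.4 percentage points (protein-coding), 10.1 to 11.1 (structured), 6.27 to 7.41 (long noncoding) and 0.378 to 0.419 (pseudogene) with 1 library left out, and 6 against 2 libraries cannot reach 0.05. STAT3 changed sign without the 3 libraries (0.98) and ranged from -0.77 to 0.23 with 1 left out, being positive without JPX-0700 replicate 3 (0.07) and JPX-0750 replicate 3 (0.17) as well, and PABPC1 changed sign with quantile normalization (-0.20). Causes were not tested, beyond what fewer genes or libraries imply. No alternative called a gene between the compounds. edgeR and DESeq2 were not run, because the decimal commas of the table kept it from being registered as counts.

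With the replicate number as a block, 453 protein-coding genes rose and 56 fell, and 257 and 0 noncoding genes did (436, 48 and 252 shared with the fit without it), and 0 differed between the compounds. BIRC5 lost its call (adjusted p = 0.0508 in limma). Deviations of same-numbered libraries correlated negatively between DMSO and either compound, so the numbers were not taken to pair those samples. At 726043 to 6305586 reads a library, low genes of the treated group rest on few reads, 1 read being worth up to 4.61 normalised counts.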
